A study of Mus musculus with 6 samples.

Results

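The clustered protocadherins are cell surface cadherins whose genes lie side by side on mouse chromosome 18. The 57 genes described here are the protein-coding genes of GENCODE M21 on that chromosome whose symbols begin with Pcdha, Pcdhb or Pcdhg, out of 48526 genes listed in the count tables. They comprise 14 alpha, 22 beta and 21 gamma genes. The gamma genes divide into 12 of subtype A, 6 of subtype B and 3 of the C type, and the alpha cluster holds another 2 C-type genes. Values are RNA sequencing read counts from primary renal tubular epithelial cells, cultured from the digested kidney cortex of mice aged 4 to 5 weeks. KO cultures (3 libraries) came from mice with floxed Setd2 alleles and the Cre transgene (Setd2(F/F)Ksp-Cre+), and WT cultures (3 libraries) came from littermates with the floxed alleles and no Cre (Setd2(F/F)). Ksp is the promoter of Cdh16, which drives Cre in kidney tubule epithelium, and Setd2 encodes the enzyme that trimethylates lysine 36 of histone H3. Cre was present in all KO cultures and absent from the WT cultures, so its own effect and that of the Setd2 deletion cannot be told apart.

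Clustered protocadherins bind copies of themselves on the opposing cell membrane, and in neurons the combination chosen by each cell serves self-recognition and avoidance. Each alpha and gamma gene joins its own large first exon, which encodes the ectodomain and the membrane span, to small constant exons shared by the whole cluster, whereas each beta gene is complete in itself. Promoters are chosen through CTCF, cohesin and distant enhancers, and unused promoters carry DNA methylation. The C-type genes are largely outside this random choice and are used more constantly.

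Each library held 86078636 to 106974842 counts. Setd2 had 163, 154 and 158 CPM (counts scaled to TMM-adjusted library size) in KO replicates 1 to 3, against 185, 168 and 152 CPM in WT replicates 1 to 3, and these gene-level counts do not check the deletion of single exons. KO replicates 2 and 3 stood apart by Xist, which coats the inactive X chromosome: it had 507 and 606 CPM there and 0.386 CPM in KO replicate 1, against 0.348 to 0.683 CPM in WT. Sex and genotype thus partly coincided, and a fit with a term for these libraries (the Xist term) stands beside the calls of named genes. With that term the KO estimate comes from KO replicate 1 alone against the WT libraries. It is therefore given as an effect size, without calls. Epithelial markers were abundant: Krt8 averaged 2590 CPM in KO and 2590 CPM in WT, and Cdh1 averaged 1200 CPM in KO and 1020 CPM in WT. Of 16 tubular markers 15 were tested and 5 rose, with sums of 7450 to 7520 CPM in KO and 6480 to 7520 CPM in WT. The proximal tubule marker Slc34a1 was near 0, at 0.00378 CPM in KO and 0 in WT. Other proximal tubule markers were present, Lrp2 at 17.3 CPM in KO and 10 CPM in WT, and Cubn at 7.16 CPM in KO and 8.29 CPM in WT. The labels do not state that replicates came from separate animals, so the p-values cover only the spread among these libraries, which may be technical. Of all 17571 genes tested with edgeR's quasi-likelihood test, 21.0% were called at a Benjamini-Hochberg adjusted p below 0.05, 12.0% higher and 9.08% lower in KO.

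The way genes overlap sets what the counts can show. In mm10 coordinates the alpha genes span chromosome 18 from 36930184 to 37187661, the beta genes from 37264938 to 37524479 and the gamma genes from 37661793 to 37841873, all on the plus strand. A median of 46.4% of an alpha gene's exon bases, 100% of a beta gene's and 54.8% of a gamma gene's overlap no exon of another listed gene on either strand. The rest includes the shared constant exons, stretches where neighbours such as Pcdhb21 and Pcdhb22 overlap, antisense genes and 3 listed fusion genes that run from the alpha into the gamma cluster (Gm42416, Gm37013 and Gm37388), each with 0 counts in all 6 libraries. Pcdhga10 had 0 counts in every library while its neighbours Pcdhgb6 and Pcdhgb7 had 2192 and 749 counts in all. It has 0 exon bases free of another gene's exons, since the antisense gene Gm26672 covers its first exon (2613 bases are free on its own strand), so where counting ignored strand its 0 says nothing of its expression. The alpha symbol Pcdha11 is carried by a pair of gene IDs, named here with their IDs. Pcdhgb8, annotated as a polymorphic pseudogene with 2 counts in all, is not among the 57. Levels are compared between genes as CPM per kb of unshared exon, unless all exon bases are named.

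The gamma cluster held most of the protocadherin counts and the alpha cluster almost none. Summed over its members, the gamma cluster had 33.1, 31.0 and 36.9 CPM in KO replicates 1 to 3, against 25.3, 28.3 and 27.7 CPM in WT replicates 1 to 3. The beta cluster had 3.65, 3.92 and 5.38 CPM in KO, against 5.67, 6.22 and 5.32 CPM in WT. All KO libraries thus lay above all WT libraries for gamma, while for beta KO replicates 1 and 2 lay below every WT library and KO replicate 3 lay within the WT range. The means were 33.7 ± 2.97 CPM in KO and 27.1 ± 1.61 CPM in WT for gamma, a ratio of 1.24, and 4.32 ± 0.929 CPM in KO and 5.74 ± 0.453 CPM in WT for beta, a ratio of 0.752 (SD, n = 3 each).

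The ratio of gamma to beta counts within a library does not depend on library scaling. Gamma counts were 9.08, 7.92 and 6.86 times the beta counts in KO replicates 1 to 3, against 4.46, 4.56 and 5.21 times in WT replicates 1 to 3. The lowest KO ratio lay above the highest WT ratio, with means of 7.95 ± 1.11 in KO and 4.74 ± 0.41 in WT (SD, n = 3 each). As a sum over chosen members this ratio carries no test. In such cultures, fewer cells that express a gene and less RNA per cell cannot be told apart.

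**Figure D1:**
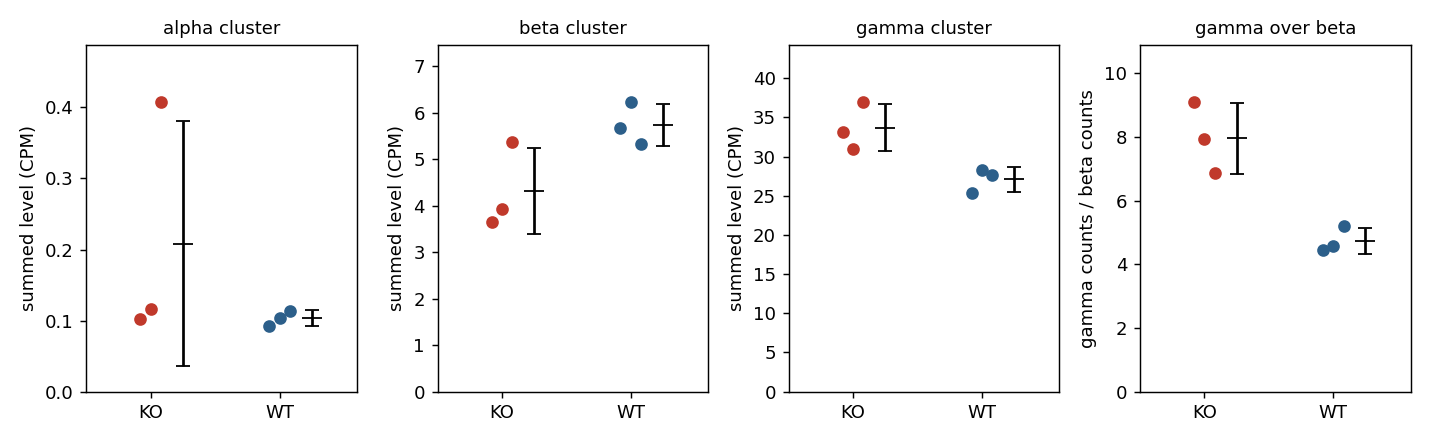
Summed CPM of the alpha, beta and gamma genes and, at the right, the ratio of gamma to beta counts (linear axes from 0), with 1 point per library for KO (left, red) and WT (right, blue) and the mean ± SD of 3 libraries in black. The gamma sum and the ratio are higher in every KO library than in any WT library, and the beta sums overlap through KO replicate 3 at 5.38 CPM.

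Among the gamma genes, C-type Pcdhgc3 stood far above the rest. Pcdhgc3, whose product is known to bind Axin1 in the Wnt pathway, averaged 5.42 CPM per kb over both groups, above 60.6% of 17488 ranked genes. Next came Pcdhgb6 at 1.5 and Pcdhga11 at 1.39 CPM per kb, then Pcdhgb7 at 0.721 and Pcdhgb2 at 0.695. For comparison, Pcdh1, a protocadherin outside the clusters, was at 16.2 and the epithelial cadherin gene Cdh1 at 243 CPM per kb. The places of Pcdhga11 and Pcdhgb7 depend on the length used, because Gm26672 also covers part of their exons. Over all exon bases Pcdhga11 was at 0.367 and Pcdhgb7 at 0.279 CPM per kb, below Pcdhgb2 at 0.394 and Pcdhgb4 at 0.37. On that scale Pcdhgb6 was at 0.820 and Pcdhgc3, which also shares bases with a gene on the other strand, at 1.79. B genes ranged from 0.225 to 1.5 CPM per kb with a median of 0.647, and the 11 A genes with unshared exon from 0.115 to 1.39 with a median of 0.234. The other C-type gamma genes were low, Pcdhgc4, known in mice for the survival of interneurons, at 0.124 and Pcdhgc5 at 0.0493 CPM per kb.

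Beta levels were mostly lower and leaned toward the gamma end of the cluster. The 22 genes ranged from 0.00529 to 0.253 CPM per kb with a median of 0.0307. Pcdhb17 was highest at 0.253, followed by Pcdhb16 at 0.128 and Pcdhb19 at 0.0887 CPM per kb. Across the 22 beta genes, Spearman's rho between chromosomal order and level was 0.61, a description over neighbouring genes that share libraries. Over 20 gamma genes the same rho was 0.28.

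**Figure D2:**
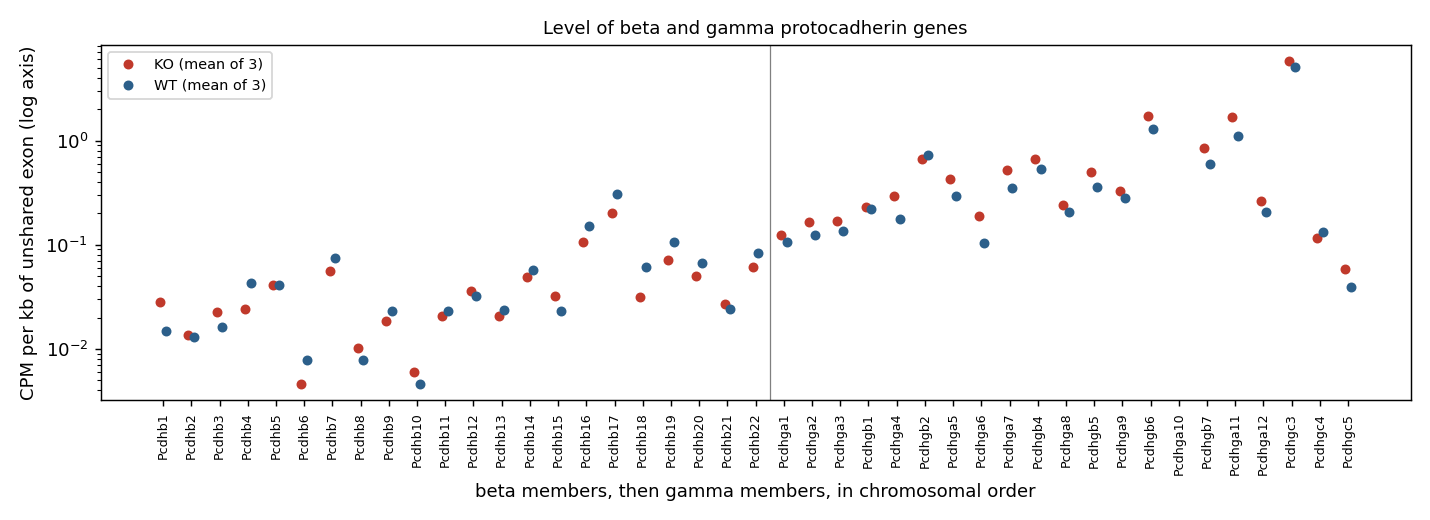
Mean CPM per kb of unshared exon (log axis) of each beta and gamma gene in chromosomal order, KO in red and WT in blue (means of 3 libraries). Pcdhgc3 stands at the top, the beta genes at the left lie mostly below the gamma genes, and Pcdhga10, with no unshared exon, has no point.

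Alpha genes were close to absent from the counts. Of the 14, 10 had at least 1 count in some library, no gene exceeded 12 counts in a library, and none passed the filter on low counts. The highest were Pcdha11 (ENSMUSG00000007440), with 2, 6 and 12 counts in KO replicates 1 to 3 against 3, 2 and 6 in WT, and Pcdha12, with 2, 2 and 11 counts in KO against 0, 4 and 1 in WT. Pcdha9 had 1, 2 and 5 counts in KO and 1, 2 and 3 in WT. The C-type gene Pcdhac1 had 0 counts in all 6 libraries despite 2559 unshared bases, and a count of 0 allows up to 3 counts, at most 0.0347 CPM, in a library (counting error only). Pcdhac2, known in mice for the spacing of serotonergic axons, had 0, 0 and 2 counts in KO and 1, 0 and 0 in WT. Pcdha4, Pcdha6 and Pcdha11 (ENSMUSG00000102206) were also at 0, but with only 404, 1886 and 1268 unshared bases. Summed, the alpha genes had 0.102, 0.116 and 0.407 CPM in KO replicates 1 to 3, against 0.0926, 0.104 and 0.114 CPM in WT. The ratio of the means was 2.02 with KO replicate 3 and 1.05 without it. KO replicate 3 was also the highest library for the neuronal gene Stmn2, at 0.336 CPM. The other KO libraries had 0.0907 and 0.147 CPM, and WT had 0.0377 to 0.0579 CPM. Other neuronal genes varied. Among the KO libraries, replicate 3 was lowest for Elavl4 (0.316 CPM) and Syt1 (0.265 CPM) and highest for Map2 (24.7 CPM). The part of neuronal RNA in the alpha counts was not tested.

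Of the 21 gamma genes, 20 were tested and 4 rose in KO, a share of 20% beside 12.0% of all tested genes. Among the tested genes in the abundance range of the tested protocadherins, 13.9% rose. Lower calls numbered 0 with edgeR, DESeq2 and limma-voom, beside 9.08% of all tested genes with edgeR. They also numbered 0 at an unadjusted edgeR p under 0.05, which 36.3% of all tested genes reached in either direction. The 4 encode homophilic adhesion receptors of subtypes A (Pcdhga7, Pcdhga11) and B (Pcdhgb6, Pcdhgb7).

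Pcdhga11 (ENSMUSG00000102742) had 2.27, 2.03 and 1.99 CPM in KO replicates 1 to 3, against 1.39, 1.51 and 1.29 CPM in WT. Every KO library was above every WT library. Its estimate was a log2 fold change of 0.58 ± 0.16 (SE; edgeR adjusted p = 0.0226). Pcdhgb7 (ENSMUSG00000104063) had 1.43, 1.53 and 1.67 CPM in KO, against 1.08, 1.04 and 1.13 CPM in WT, again without overlap. Its log2 fold change was 0.51 ± 0.16 with an edgeR adjusted p of 0.0463. Both genes share exon bases with the antisense Gm26672, which had 10, 20 and 14 counts in KO and 12, 9 and 10 in WT.

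Pcdhga7 (ENSMUSG00000103472) had 1.42, 1.18 and 1.40 CPM in KO, against 0.787, 0.885 and 1.00 CPM in WT. Its groups did not overlap, and the log2 fold change was 0.57 ± 0.18 with an edgeR adjusted p of 0.046. Pcdhgb6 (ENSMUSG00000103088), the most abundant B gene, had 4.16, 4.03 and 4.92 CPM in KO, against 3.35, 3.52 and 3.06 CPM in WT. The log2 fold change was 0.40 ± 0.13, with an edgeR adjusted p of 0.0496 just under the threshold. These calls were mostly lost when 1 library was left out, whichever it was. Over all genes such fits called 1683 to 3766 genes, against 3698 with all 6 libraries. Leaving out each library in turn kept Pcdhga11 called in 2 of 6 fits (edgeR adjusted p 0.0345 to 0.081), Pcdhga7 in 1 of 6 (0.0471 to 0.131) and Pcdhgb6 and Pcdhgb7 in 0 of 6 (0.0571 to 0.194 and 0.0718 to 0.148), with log2 fold changes that stayed positive, from 0.31 to 0.66. The Xist term sets KO replicate 1 alone against WT. With it the errors were larger, and the log2 fold changes were 0.70 ± 0.21 for Pcdhga11, 0.66 ± 0.26 for Pcdhga7, 0.40 ± 0.23 for Pcdhgb7 and 0.33 ± 0.19 for Pcdhgb6.

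**Figure D3:**
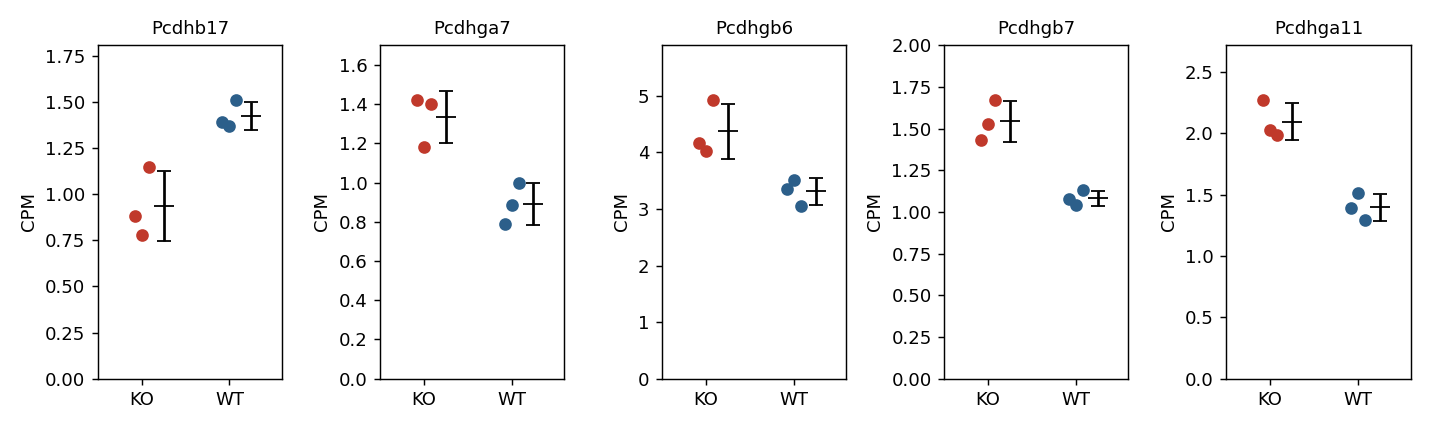
CPM (linear axes from 0) of the 5 called genes, with 1 point per library for KO (left, red) and WT (right, blue) and the mean ± SD of 3 libraries in black. KO lies below WT for Pcdhb17 and above WT for Pcdhga7, Pcdhgb6, Pcdhgb7 and Pcdhga11, with no overlap in any panel.

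The other tested gamma genes did not pass the threshold with edgeR and TMM factors. DESeq2 called Pcdhgb5 as well (adjusted p = 0.0382), and edgeR with median-of-ratios or upper-quartile factors called Pcdhga6 (0.0489 and 0.0468). Pcdhga6 was also called by edgeR with no filter beyond a total count of 1 (0.0332) and with the replicate number as a block (0.0462). Leaving out WT replicate 1 called Pcdhga6 (0.0374), and leaving out KO replicate 1 called Pcdhga5 (0.035). Pcdhgc3 had 10.2, 10.2 and 11.4 CPM in KO, against 8.08, 9.43 and 9.90 CPM in WT. The groups were apart, but the log2 fold change of 0.21 ± 0.11 had an edgeR adjusted p of 0.178. Pcdhga6 had the largest gamma estimate, 0.87 ± 0.28, with 0.567, 0.515 and 0.387 CPM in KO against 0.336, 0.273 and 0.197 CPM in WT and an edgeR adjusted p of 0.0503. Pcdhgb5, with 2.30 ± 0.422 CPM in KO and 1.64 ± 0.0875 CPM in WT, and Pcdhga4, with 0.460 ± 0.0634 CPM in KO and 0.276 ± 0.0954 CPM in WT, also had groups apart, with edgeR adjusted p of 0.0592 and 0.105. The C-type genes Pcdhgc4 and Pcdhgc5 had log2 fold changes of -0.16 ± 0.25 and 0.56 ± 0.35 and overlapping groups.

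Over the 20 tested gamma genes, 18 log2 fold changes were positive and 2 negative (Pcdhgb2 and Pcdhgc4), beside 48.9% positive over all tested genes. Their median was 0.36, and it was 0.08 over the 8241 tested genes in the abundance range of the tested protocadherins. In 8 of the 20 the KO libraries all lay above the WT libraries, beside 20.6% of all tested genes. At an unadjusted p under 0.05 there were 7 gamma genes, all with positive estimates, and 3 beta genes, all negative, together 10 of 31, where the share over all tested genes was 36.3%. By subtype the summed level was 9.39 ± 0.489 CPM in KO and 6.81 ± 0.316 CPM in WT for A genes and 13.0 ± 1.82 CPM in KO and 10.5 ± 0.569 CPM in WT for B genes. These genes share a regulatory region and constant exons and are not independent of each other.

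Within the gamma counts, the shares of both most abundant genes overlapped between groups. Pcdhgc3 took 31.5 ± 1.18% of gamma counts in KO and 33.6 ± 1.90% in WT. Pcdhgb6 took 13.0 ± 0.389% in KO and 12.2 ± 1.12% in WT. Pcdhga11 took 6.84, 6.53 and 5.38% in KO replicates 1 to 3, against 5.49, 5.31 and 4.67% in WT, so that KO replicate 3 fell within the WT range. Pcdhga7 took 4.28, 3.79 and 3.78% in KO, against 3.11, 3.12 and 3.62% in WT, and Pcdhgb7 took 4.31, 4.94 and 4.53% in KO, against 4.26, 3.69 and 4.07% in WT. Both had every KO share above every WT share. Pcdhgc4 took 1.23, 1.22 and 1.19% in KO, against 1.46, 1.49 and 2.05% in WT, with the groups apart. Pcdhgb2 took 6.94, 4.67 and 4.64% in KO, against 7.28, 8.1 and 6.94% in WT, so that its groups met at 6.94%.

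Of the 22 beta genes, 11 were tested and 1 fell, Pcdhb17. A share of 9.09% of the tested beta genes stands beside the 9.08% of all tested genes that fell. Among the tested genes in the abundance range of the tested protocadherins, 5.01% fell. Pcdhb17 (ENSMUSG00000046387), a single-exon adhesion receptor gene and the most abundant of its cluster, had 0.884, 0.777 and 1.15 CPM in KO replicates 1 to 3, against 1.39, 1.37 and 1.51 CPM in WT. Every KO library was below every WT library. The log2 fold change was -0.60 ± 0.19 with an edgeR adjusted p of 0.0462. The call was kept in 1 of 6 fits that each left out 1 library (edgeR adjusted p 0.0349 to 0.149). With the Xist term (KO replicate 1 against WT) the log2 fold change was -0.68 ± 0.29. Pcdhb19 had 0.442, 0.494 and 0.591 CPM in KO, against 0.845, 0.753 and 0.673 CPM in WT, also without overlap, but its edgeR adjusted p was 0.0835. Pcdhb16 had 0.431, 0.410 and 0.825 CPM in KO, against 0.799, 0.932 and 0.621 CPM in WT. KO replicate 3 lay inside the WT range there, and the edgeR adjusted p was 0.246.

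Of the 11 tested beta genes, 9 had negative log2 fold changes, beside 51.1% of all tested genes, and 2, Pcdhb5 and Pcdhb21, had positive ones. The range was -0.98 for Pcdhb18 to 0.14 for Pcdhb21 and the median was -0.41. It was -0.22 without KO replicate 1 and -0.61 without KO replicate 3. In 3 of the 11 the KO libraries all lay below the WT libraries, beside 21.3% of all tested genes. The 11 beta genes too low to test did not share the direction: they summed to 0.621 ± 0.0319 CPM in KO and 0.568 ± 0.111 CPM in WT, where the tested ones summed to 3.69 ± 0.906 CPM in KO and 5.17 ± 0.463 CPM in WT (SD, n = 3 each).

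**Figure D4:**
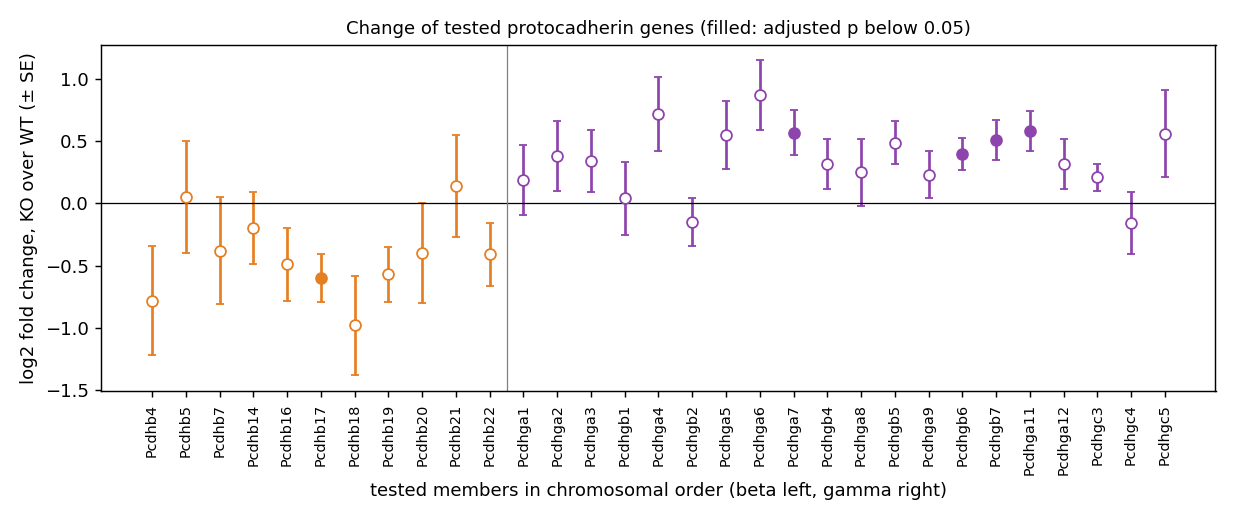
Log2 fold change, KO over WT, ± SE for the 31 tested genes in chromosomal order, beta in orange and gamma in purple, with filled points for an edgeR adjusted p below 0.05. Most beta estimates lie below 0 (median -0.41) and most gamma estimates above 0 (median 0.36), and 5 points are filled.

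Called genes around the clusters stood in both directions. Of 29 neighbouring protein-coding genes within 500000 bases, 28 were tested, 2 rose and 3 fell, beside 12.0% higher and 9.08% lower over all genes. Of the 28, 20 log2 fold changes were negative and 8 positive, with a median of -0.04, beside 51.1% negative over all tested genes. In 6 the KO libraries all lay below and in 3 all above the WT libraries, beside 21.3% and 20.6% of all tested genes. The general transcription factor gene Taf7, between the beta and gamma clusters, had 5.65 ± 0.622 CPM in KO and 4.77 ± 0.901 CPM in WT (edgeR adjusted p = 0.269). Diaph1, an actin regulator just beyond the gamma cluster, had a log2 fold change of -0.02 ± 0.07. Gnpda1, an enzyme of glucosamine metabolism, rose by 0.57 ± 0.08, while Hars2, the mitochondrial histidyl-tRNA synthetase gene, fell by 0.42 on the log2 scale, with edgeR adjusted p of 0.00107 and 0.00669. Pcdh1 also rose, by 0.40 ± 0.10. Sra1 and Hdac3, a histone deacetylase gene, fell by 0.34 and 0.24 on the log2 scale, calls that ended on leaving out single libraries in 2 of 6 fits for Sra1 (adjusted p up to 0.0813) and 3 of 6 for Hdac3 (up to 0.12). With the Xist term (KO replicate 1 against WT) the log2 fold changes were 0.61 ± 0.12 for Gnpda1, -0.46 ± 0.13 for Hars2, -0.34 ± 0.13 for Sra1 and -0.24 ± 0.11 for Hdac3.

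Among 28 genes that act in protocadherin promoter choice or silencing, all were tested, 3 rose and 1 fell, beside shares of 12.0% and 9.08% over all genes. Smchd1, a repressor of clustered protocadherin genes in mice, had 149, 158 and 146 CPM in KO, against 205, 183 and 167 CPM in WT. The groups did not overlap, and the log2 fold change was -0.29 ± 0.08 with an edgeR adjusted p of 0.0298. The Setdb1 cofactor gene Atf7ip (0.32 ± 0.07), the zinc finger gene Wiz (0.35 ± 0.09) and the cohesin subunit gene Rad21 (0.27 ± 0.09) rose, with edgeR adjusted p from 0.0134 to 0.0469. Leaving out single libraries ended the call for Smchd1 in 4 of 6 fits (adjusted p up to 0.131), for Rad21 in 5 of 6 (up to 0.159), for Wiz in 2 of 6 (up to 0.0881) and for Atf7ip in 1 of 6 (0.0549). With the Xist term (KO replicate 1 against WT) the log2 fold changes were -0.31 ± 0.13 for Smchd1, 0.38 ± 0.12 for Rad21, 0.36 ± 0.14 for Wiz and 0.31 ± 0.12 for Atf7ip. Ctcf was at 104 ± 0.633 CPM in KO and 117 ± 7.81 CPM in WT, with an edgeR adjusted p of 0.102.

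Of 23 genes listed as partners, proteases or other effectors of protocadherins, all were tested. With edgeR 1 rose and 0 fell, where DESeq2 called 2 higher and 1 lower and limma-voom 1 higher and 0 lower. Over all genes 12.0% were higher and 9.08% lower. At an unadjusted edgeR p under 0.05, 4 genes differed in either direction, beside 36.3% over all genes. The called gene was the kinase gene Ptk2b, whose product binds protocadherin alpha and gamma tails, with 195 ± 9.49 CPM in KO and 154 ± 7.30 CPM in WT (log2 fold change 0.34 ± 0.07, edgeR adjusted p = 0.00789). With the Xist term (KO replicate 1 against WT) its log2 fold change was 0.42 ± 0.11.

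Protocadherins outside the clusters were tested for 9 of 12 genes, of which 4 rose and 1 fell, beside 12.0% and 9.08% over all genes. Pcdh17 had 3.78, 3.12 and 3.26 CPM in KO, against 1.32, 0.998 and 1.29 CPM in WT. Its log2 fold change of 1.49 ± 0.16 (edgeR adjusted p = 0.000213) exceeded every tested clustered gene's in size and held without each library in turn. Pcdh15, a tip-link protein of hair cells, rose by 1.69 ± 0.34 at a low level, Pcdh1 by 0.40 ± 0.10 and Pcdh7 by 0.39 ± 0.10, and Pcdh19 fell by 0.45 on the log2 scale. Leaving out 1 library ended the call for Pcdh1 (without KO replicate 3, adjusted p = 0.0765), for Pcdh19 (without KO replicate 1, 0.0803) and for Pcdh7 (without KO replicate 1, 0.0679, and without KO replicate 3, 0.0803). With the Xist term (KO replicate 1 against WT) the log2 fold changes were 1.65 ± 0.21 for Pcdh17 and 1.73 ± 0.47 for Pcdh15. Pcdh1 was at 0.28 ± 0.14, Pcdh7 at 0.45 ± 0.15 and Pcdh19 at -0.56 ± 0.16 in that fit. Of 9 Fat, Dachsous and Celsr genes, 7 were tested and 0 were called by edgeR, DESeq2 or limma-voom. At an unadjusted edgeR p under 0.05 there were also 0, beside 36.3% over all tested genes in either direction. The atypical cadherin gene Fat1 was at -0.13 ± 0.07.

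Markers of several other cell types were higher in KO, where 12.0% of all tested genes rose and 9.08% fell. These calls used all 6 libraries, in which sex and genotype partly coincided, and fits that left out libraries were not examined for these lists. Fibroblast and pericyte markers rose in 7 of 12 tested (sums of 125 to 208 CPM in KO and 119 to 159 CPM in WT), endothelial markers in 7 of 10 (40.4 to 47.4 CPM in KO and 22.1 to 27.2 CPM in WT), podocyte markers in 4 of 8 (156 to 192 CPM in KO and 98.4 to 101 CPM in WT) and leukocyte markers in 4 of 8 (43.5 to 52.3 CPM in KO and 29.8 to 34.3 CPM in WT), and lower calls in these lists numbered 0 with edgeR, DESeq2 and limma-voom. The podocyte sum was mostly Podxl (139 CPM in KO and 79 CPM in WT). The fibroblast and pericyte sum was mostly Tagln (59.6 CPM in KO and 58.7 CPM in WT) and Acta2 (56.3 CPM in KO and 52.8 CPM in WT), which were not called. Neuronal markers rose in 1 of 5 tested, Nefm, and summed to 24.4 to 27.2 CPM in KO and 20.6 to 26.1 CPM in WT, mostly Map2, while Snap25 had 0 counts in all libraries. Glial markers summed to 81.6 to 86.5 CPM in KO and 79.2 to 85.3 CPM in WT, mostly Erbb3, with Foxd3 at 0. Their part in the protocadherin values was not tested.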

How the data were processed

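The authors deposited raw read counts per Ensembl gene, 1 table for each of 6 libraries. Per the submitters' processing notes, Trimmomatic 0.38, STAR 2.7.1a, HTSeq 0.11.2 and mm10 were used. What each tool did, which gene models it read, whether strand was used and how reads over several genes or places were handled is not stated there, and this decides how reads of shared protocadherin exons were counted. Symbols and exon lengths came from GENCODE M21, which matched 48144 genes. Groups and replicate numbers came from the sample titles. Counts were filtered with filterByExpr, scaled with TMM factors and tested with edgeR 4.0.16 (R 4.3.3, quasi-likelihood, genotype as the term, Benjamini-Hochberg over 17571 genes, threshold 0.05). SE of a log2 fold change is its size divided by the root of the F statistic. Near-identical protocadherins can lose or split reads. The test was checked on simulated data. Alternatives were other factors and filters, DESeq2 1.42.0, limma-voom (limma 3.58.1), a replicate block, an Xist term and leaving out libraries. Named members were those called, the 3 highest per kb in each cluster and the C-type genes. Members and lists were chosen with earlier results of these data known. From other lists, called genes were named, with Rad21, Pcdh7, Sra1 and Hdac3 beyond 3 per list and a few others after their values were seen. Other genes of the clusters were named after their values were seen, some because these border the threshold. The calls of single glial markers are not reported here.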

Additional observations from a re-analysis of the deposited data

How the results depend on the processing

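Of 5 calls, 4 higher (all gamma) and 1 lower (Pcdhb17), none held under every alternative, while the direction of all 5 did. Members called higher numbered 5 with DESeq2, 5 with median-of-ratios factors, 5 with upper-quartile factors, 4 at a mean CPM of at least 1, 3 with limma-voom, 2 with library totals and 2 without a filter beyond a total count of 1. Genes outside the 5 calls are among these: Pcdhgb5 with DESeq2, and Pcdhga6 with median-of-ratios factors, upper-quartile factors and no filter. Members called lower numbered 0 with upper-quartile factors, 0 at a mean CPM of at least 1 and 2 with no filter (Pcdhb17 and Pcdhb18). A fit without the Xist-positive libraries, added after seeing the data, leaves KO replicate 1 alone and takes its spread from WT. That fit and the Xist term both rest on KO replicate 1, so their calls are not given. Leaving out each library gave 0 to 2 higher and 0 to 1 lower, with Pcdhga5, Pcdhga6 and Pcdhb18 among them. With the replicate number as a block, 2 gamma members (Pcdhga6 and Pcdhga11) were higher and 1 beta member (Pcdhb17) lower. Same-numbered libraries correlated at 0.04, -0.15 and 0.03 in their deviations. These values show no pairing by number, but with so few libraries they cannot exclude it. The beta median log2 fold change was -0.84 with the Xist term, -0.81 without the Xist-positive libraries and -0.61 to -0.22 on leaving out 1 library. The gamma median was 0.25 to 0.46 over all alternatives. The summed beta ratio was 0.636 to 0.82 and the gamma ratio 1.18 to 1.29. The alpha ratio, 2.02 over all libraries, was 1.05 to 2.56 on leaving out 1 library, and 0.986 without the Xist-positive libraries, on 10 detected genes. For these shifts the cause was not tested. The medians with the Xist term and without the Xist-positive libraries both compare KO replicate 1 alone with WT. Low counts limit every alpha gene and the 11 untested beta genes.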
